A study of Mus musculus with 21 samples.

Results

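Of 58900 entries that the table of this study classes as piRNA, 1001 were more abundant in somatic cells than in germ cells, and these 1001 are described here. They were chosen by rate, the count of an entry per 1e6 tags of all classes in a library. A member had a mean rate of at least 0.5 in the 18 libraries not made from germ cells, above its mean rate in the 3 germ cell libraries. Because those rates chose the members, their germ cell values are a description and were not tested. A further 3123 piRNA entries were higher in the somatic libraries but under 0.5, 54152 were higher in germ cells, and 624 held no tag in any library.

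The libraries came from untreated primary cells of C57BL/6J mice, all kept in DMEM/F12 with 10% serum. Each of 7 cell types had 3 libraries: peritubular myoid (PTM) cells, which are the contractile cells around the seminiferous tubules, Sertoli cells, Leydig cells and germ cells of the testis, and smooth muscle cells of vessels (VSMC), intestine (ISMC) and trachea (TSMC). All are labelled as primary isolated cells; per the study's design text the testicular types were isolated by earlier methods, and the others, called smooth muscle-like there, were supplied by a company, so organ and source cannot be told apart. Neither age nor pooling of animals is stated, nor whether the libraries of a type are separate animals or cultures, so p-values measure only the spread between these libraries, which may be technical.

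piRNAs are small RNAs bound by PIWI proteins. In the germ cells of the mouse testis they are cut from long single-stranded precursors, and they silence transposable elements by guiding cleavage of transposon RNA and methylation of transposon DNA. They differ from miRNAs, which a dicing enzyme cuts from hairpins and which Argonaute proteins of another clade carry in nearly all cells. An entry named as a piRNA in a catalogue records a sequence or a locus, and neither PIWI binding nor the length of the tags was measured here.

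The members were of 2 kinds. With an mmu_piR name, a catalogue number, there were 67 members among 32549 such entries. The other 934, named novel_pir, each carried a repeat annotation, with the chromosome, the strand and the limits of the repeat on mm10, and fell in 188 repeat intervals of the 3413 that all novel_pir entries occupied. Intervals were 40 to 3007 bases long (median 228.5). By family, 388 members lay in LINE/L1 elements, 172 in LTR/ERVL-MaLR, 127 in LTR/ERVK, 97 in DNA/hAT-Tip100, 81 in LTR/ERV1 and 58 in LTR/ERVL elements. The hAT-Tip100 family held 9.69% of members and 0.57% of all piRNA entries, and mmu_piR names 6.69% of members and 55.3% of all piRNA entries. Set against the mm10 gene annotation of GENCODE (release vM21), 96 of the 188 intervals were intergenic, 77 lay in introns and 15 overlapped an exon, 11 of these an annotated miRNA gene.

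The tags' own sequences are not used here, but several intervals overlap a transcript or a RefSeq window whose letters could be read. These letters show that parts of intervals at different addresses can share sequence. Whether tags of a member fall in the shared parts is not known here. The interval chr17:39842998-39843163, plus strand, held 66 members. It overlaps the start of an exon of the lincRNA Gm26917, and Rn18s-rs5, annotated as a pseudogene, starts 13 bases after the end of that exon on the RefSeq annotation of the same build. The interval chr11:104072971-104073136, minus strand, held 28 members and is also 166 bases long. Part of it lies in the RefSeq promoter window of Gm42092. Below, the chr17 letters are from the GENCODE transcript of Gm26917 (GRCm38, chr17:39843013-39843163, plus strand) and the chr11 letters from RefSeq (GRCm38.p6, chr11:104073090-104073136, minus strand). Capitals mark letters that are equal at positions read in both copies.
chr17 copy: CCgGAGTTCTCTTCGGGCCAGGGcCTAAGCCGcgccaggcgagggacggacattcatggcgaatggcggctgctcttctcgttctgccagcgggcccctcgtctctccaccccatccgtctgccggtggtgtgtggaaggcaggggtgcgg
chr11 copy: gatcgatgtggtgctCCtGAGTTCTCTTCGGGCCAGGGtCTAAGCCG
Of the 32 positions read in both copies, 30 were equal (93.8%).

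The hairpin of Mir5099 overlaps another hAT-Tip100 interval, chr12:36816249-36816418, with 2 members. It is shown because its end repeats the beginning of the chr11 copy. The RefSeq hairpin (GRCm38.p6, chr12:36816205-36816278, plus strand) is given with the 26 letters it shares with the chr11 copy in capitals, U read as T.
Mir5099: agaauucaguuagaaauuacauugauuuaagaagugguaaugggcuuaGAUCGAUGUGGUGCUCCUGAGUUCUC
These 26 letters were found, on either strand, in 1 of the 32851 RefSeq promoter windows, that of Gm42092. Tags of this stretch are thus written alike at both addresses, and how the authors counted tags that fit several addresses is not given in the sources used here.

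A second pair of intervals shared a run of 19 letters, GGCTGGAGAGATGGCTCAG. One is the ERVL-MaLR interval chr2:27400951-27402008 (20 members), in an intron of Vav2 and across the annotated miRNA gene Gm24049. The other is the ERVK interval chr15:38437373-38437596 (2 members), in an exon of the lincRNA G930009F23Rik. The GENCODE letters of Gm24049 (GRCm38, chr2:27401852-27401951, plus strand) and of 79 bases of the exon (GRCm38, chr15:38437508-38437586, minus strand) are given with the shared run in capitals.
Gm24049: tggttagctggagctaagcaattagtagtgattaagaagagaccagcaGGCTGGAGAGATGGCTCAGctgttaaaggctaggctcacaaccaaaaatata
G930009F23Rik: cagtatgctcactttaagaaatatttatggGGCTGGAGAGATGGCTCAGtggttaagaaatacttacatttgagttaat
The run occurred, on either strand, in 36 of the 32851 RefSeq promoter windows (0.11%), so these letters recur in the genome.

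Hairpins of known miRNAs overlapped other intervals. Those of Mir224 and Mir7688 are given from RefSeq (GRCm38.p6), the first at chrX:72261031-72261112, minus strand, in a DNA element with 5 members, and the second at chr10:93433107-93433162, plus strand, in an ERV1 interval with 1 member. Capitals mark the mature 5p arm, which the table also lists as a miRNA.
Mir224: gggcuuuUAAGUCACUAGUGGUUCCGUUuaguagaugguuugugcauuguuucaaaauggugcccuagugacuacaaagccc
Mir7688: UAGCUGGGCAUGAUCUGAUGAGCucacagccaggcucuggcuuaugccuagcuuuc
The sign in the name of the chr10 entry is minus and the gene is on the plus strand. The sign may therefore be that of the repeat, and it is not read below as the strand of the tags. In all, 36 members lay in the 11 intervals with a miRNA gene, with a summed mean rate of 124.98.

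Library depth was 18.1 to 26.1 M tags (M, 1e6 tags of all classes). The novel_pir entries held either 0 or at least 10 counts in each library, whereas mmu_piR entries went down to 1 count. A novel_pir entry listed at 0 may thus have had up to 9 tags, and no fold is given against a group in which every library is listed at 0. All 3 germ cell marker miRNAs (miR-449a-5p, miR-34c-5p, miR-34b-3p) were detected in every type, with a summed mean rate of 7441 in germ cells and 91.7 to 302 elsewhere. Gonadal miR-202 summed to mean rates of 229 to 410 over the testicular somatic types and 0.19 to 0.368 over the smooth muscle types.

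Together the members took 1.74 ± 0.477% of all tags in the 18 somatic libraries (SD, range 1.09 to 2.76%) and 94.0 ± 2.99% of their piRNA-class tags. The share was 2.22 ± 0.148% for PTM, 2.30 ± 0.408% for Sertoli, 1.41 ± 0.201% for Leydig, 1.13 ± 0.0324% for VSMC, 1.51 ± 0.0844% for ISMC and 1.88 ± 0.248% for TSMC (n = 3 each). In germ cells the members took 0.351 ± 0.136% of tags and 1.70% of piRNA-class tags. PTM, Sertoli and TSMC libraries overlapped in share, and VSMC libraries lay below those of the other 5 somatic types.

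**Figure D1:**
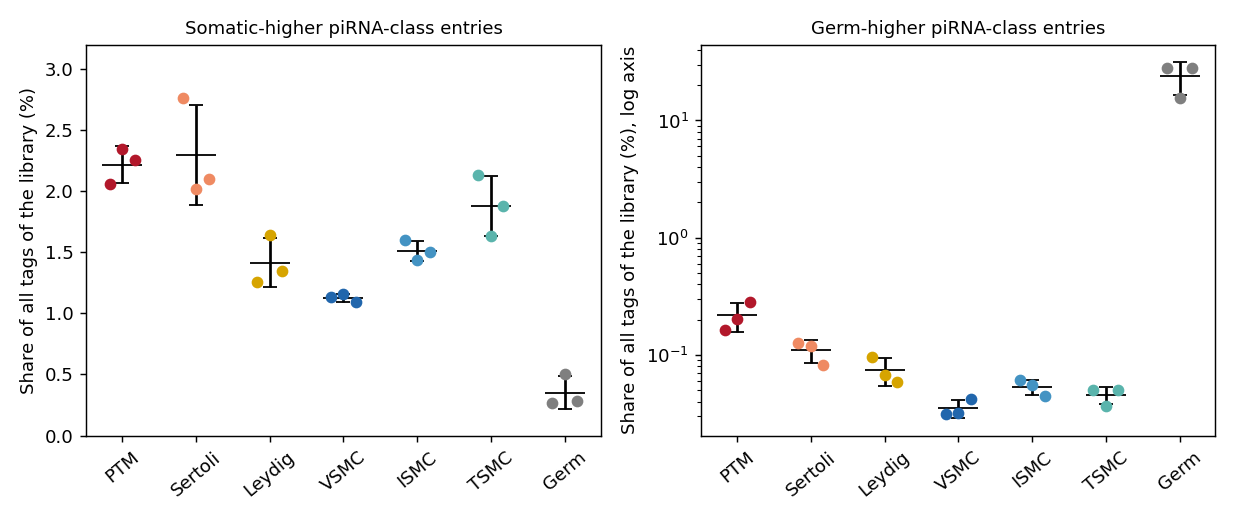
Share of all tags (%) taken by the 1001 somatic-higher piRNA entries (left, linear axis from 0) and by the 54152 germ-higher piRNA entries (right, log axis) in each of 21 libraries; points are libraries, the long bar is the mean of 3 and the whiskers are 1 SD. The members took 1.09 to 2.76% of tags in the somatic libraries, and the germ-higher entries took a mean of 23.9% in germ cells; both sets were chosen by these rates.

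The germ-higher piRNA entries were 23.9 ± 7.37% of tags in germ cells, 0.217 ± 0.0613% for PTM, 0.110 ± 0.0235% for Sertoli, 0.0739 ± 0.0200% for Leydig and mean shares of 0.0351 to 0.0536% for the smooth muscle types. PTM was highest of the somatic types here. The summed rate of the germ cell marker miRNAs was 93.6 for PTM and 302 for VSMC, with miR-34b-3p at means of 65.1 and 255. miR-449a-5p, at a mean of 6009 in germ cells, did not share this order. Its means were 15.6 for PTM, 11.5 for Sertoli, 9.26 for Leydig, 12.2 for VSMC, 23.1 for ISMC and 19.4 for TSMC. The part of germ cell RNA in the members' values was not tested.

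A small number of entries carried most of the signal. The 10 most abundant members held 48.2% of the summed mean rate, the 50 most abundant 70.6%, and 228 members held 90% of it. The median member had a mean rate of 2.15, 20 members exceeded 100 and 262 were under 1. The 67 mmu_piR members took 41.4% of the summed rate, LINE/L1 members 20.3% and ERV1 members 19.7%. Mean rates peaked in PTM for 349 members, TSMC for 176, ISMC for 172, Sertoli for 145, Leydig for 113 and VSMC for 46. At the lower limit, novel_pir2467 and novel_pir2955 (0.501 each) and novel_pir22831 (0.502) were inside, and mmu_piR_005355 (0.4999), novel_pir2556 and novel_pir6011 (0.498 each) outside. At the germ cell limit, mmu_piR_000634, novel_pir8216 and mmu_piR_000802 were inside with somatic to germ ratios of 1.02, 1.07 and 1.07, and novel_pir6106, novel_pir16260 and novel_pir16167 outside with 0.991, 0.978 and 0.975. In all 3 germ libraries 419 members were listed at 0.

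The most abundant member, mmu_piR_017405, was highest in tracheal cells. Its rates were 5346, 4050.0 and 3771 in TSMC, 3020.0, 2118 and 561 in VSMC, 3494, 2036 and 500.3 in ISMC, 432, 443 and 583 for Leydig, 1622, 1009 and 1006 for Sertoli, 1022, 966 and 909 for PTM, and 34.2, 177 and 52.2 in germ cells. All 3 TSMC libraries stood above every other library, while the third VSMC and the third ISMC libraries fell among the testicular ones. The testicular somatic types were lower than the smooth muscle types by a log2 fold change of -1.59 ± 0.34 (adjusted p = 0.0017), where ± is the SE here and for every fold change below, a call that held without any single library (-1.87 to -1.38). PTM alone gave -1.60 ± 0.52 (adjusted p = 0.022), which lost the call without any 1 of the PTM libraries (adjusted p up to 0.088). The rows most like it over the 18 somatic libraries, by Pearson correlation of log2(rate + 0.5) among 1698 rows, were miR-184-3p (r = 0.82), the precursor row RF00657 (0.79) and miR-504-3p (0.74). The 18 points share their cell types and depth.

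mmu_piR_000536 was also higher in smooth muscle. Its rates were 349, 349 and 266 in TSMC, 197, 348 and 229 in VSMC, 584, 737 and 525 in ISMC, 27.6, 29.6 and 29.1 for Leydig, 44.95, 28.8 and 33.8 for Sertoli, 51.0, 37.5 and 115 for PTM, and 9.75, 26.9 and 9.82 in germ cells. No testicular library reached a smooth muscle library. The log2 fold change of the testicular somatic types was -3.14 ± 0.21 (adjusted p = 1.6e-08), and that of PTM alone -2.67 ± 0.33 (adjusted p = 2.0e-05).

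A group of mmu_piR members was high in PTM and Sertoli cells and near 0 in smooth muscle. mmu_piR_015997 was at 1256, 3464 and 2022 for PTM, 2199, 3464 and 1210.0 for Sertoli and 0.973, 22.7 and 40.8 for Leydig. It was at 0.0429 to 2.07 in the 9 smooth muscle libraries and at 759.5, 631 and 439 in germ cells, where it was the most abundant of all members. PTM and Sertoli libraries overlapped. The log2 fold change against smooth muscle types was 12.08 ± 0.94 (adjusted p = 4.9e-07) for PTM and 10.09 ± 0.85 (adjusted p = 2.1e-07) for the testicular somatic types. Its Leydig and smooth muscle means lay below its germ cell mean, so it met the rule through PTM and Sertoli libraries alone. These calls are therefore a description.

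mmu_piR_010700 had the same high types. Its rates were 989.8, 3100.0 and 197 for PTM, 1890.0, 336 and 562 for Sertoli, 9.37, 6.63 and 0.824 for Leydig, 0.129 to 0.834 in smooth muscle libraries and 70.4, 396 and 332 in germ cells. PTM was higher than smooth muscle types by a log2 fold change of 11.89 ± 0.82 (adjusted p = 1.5e-07). Against the mean of the Sertoli and Leydig coefficients it was higher by 4.10 ± 0.75 (adjusted p = 0.019), but PTM and Sertoli libraries overlapped, and the call was lost without the first or second PTM library or the second Leydig library (log2 fold change down to 2.74, adjusted p up to 0.202). mmu_piR_032867 was at 29.8, 114 and 45.1 for PTM, 27.7, 193 and 13.5 for Sertoli and 0 to 0.0542 in smooth muscle. mmu_piR_016536 was at 0.718, 49.3 and 1.16 for PTM, 14.4, 13.9 and 6.51 for Sertoli and 0 in all 9 smooth muscle libraries. The second PTM library was the highest of its type for each of these 4 members. Each had lower means in Leydig and smooth muscle types than in germ cells, and met the rule through PTM and Sertoli libraries alone. Their calls between types are therefore a description. All 3 epithelial marker miRNAs (miR-200a-3p, miR-200b-3p, miR-205-5p) were detected in every type. Their summed rate was 16.3 to 64.6 for PTM, 11.1 to 68.4 for Sertoli, 2.27 to 3.04 for Leydig and 0.215 to 1.16 in smooth muscle libraries. miR-205-5p by itself did not share this order, with means of 0.263 for PTM, 0.034 for Sertoli, 0.455 for Leydig and 0.179 to 0.422 in smooth muscle types. Both smooth muscle miRNAs (miR-143-3p, miR-145a-5p) summed to 5860 to 10319 for PTM, 6505 to 24591 for Sertoli, 1933 to 3160 for Leydig and 2044 to 11892 in smooth muscle libraries. The part of other cell types in these members' values was not tested.

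Over the 18 somatic libraries, the rows most like mmu_piR_015997 were the joint row of miR-465a-3p, miR-465b-3p and miR-465c-3p (r = 0.98), miR-871-5p (0.98) and miR-470-5p (0.98). For mmu_piR_010700 they were miR-465b-5p (0.98), miR-463-5p (0.97) and miR-465d-3p (0.97). These rows were looked up after the members' values were seen, and the 18 points come from 6 cell types.

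Leydig cells stood highest for mmu_piR_033077. Its rates were 516, 378 and 434 for Leydig, 185, 213 and 134 for PTM, 72.7, 89.95 and 44.96 for Sertoli, 1.13 to 3.95 in smooth muscle libraries and 5.01, 36.3 and 3.76 in germ cells. Leydig, PTM and Sertoli libraries did not overlap each other. Its adjusted p for any difference between the 6 somatic types was 2.0e-09, and the log2 fold change of testicular somatic against smooth muscle types was 6.24 ± 0.25 (adjusted p = 8.5e-11). Its smooth muscle means lay below its germ cell mean, so it met the rule through the testicular somatic libraries and these calls are a description. The row most like it, also looked up afterwards, was miR-672-5p (r = 0.99, 18 libraries).

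**Figure D2:**
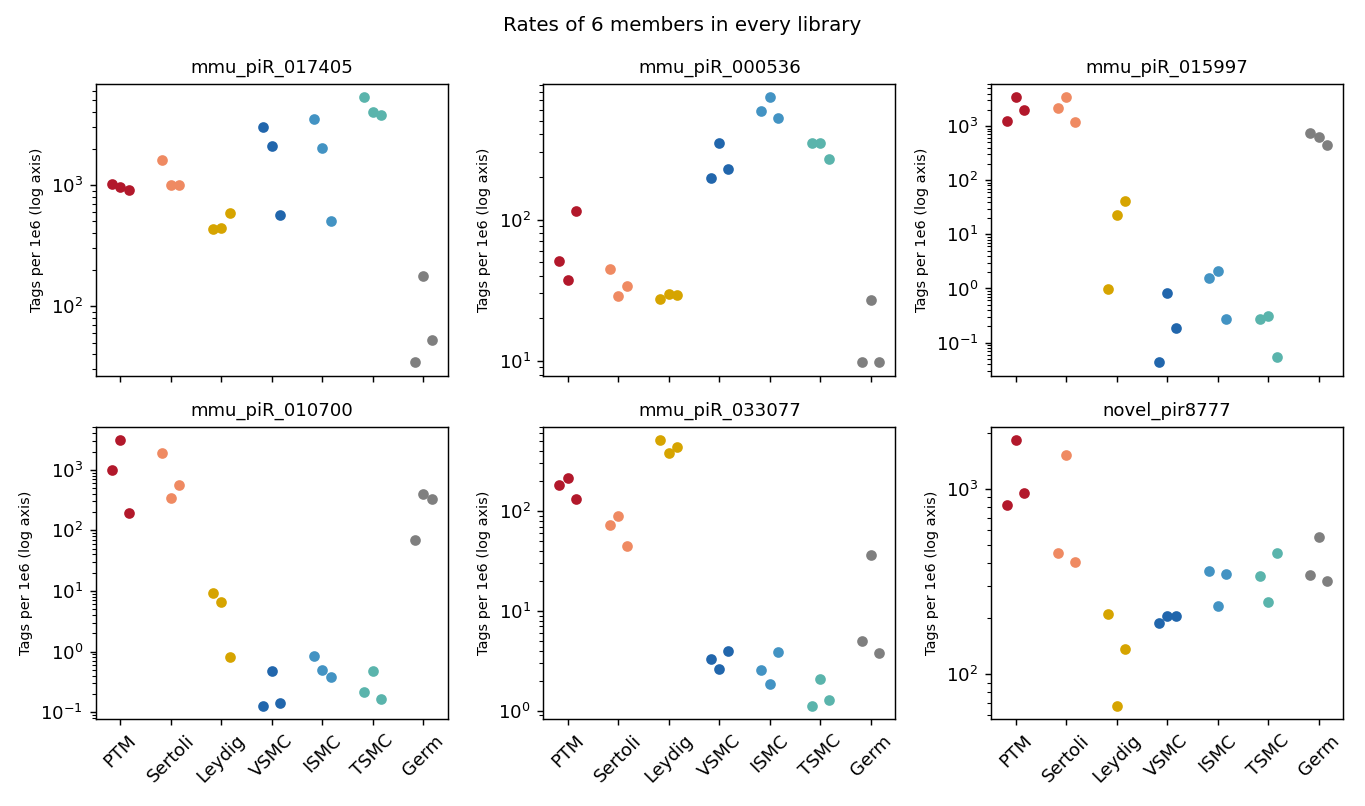
Rates of 6 members in every library (tags per 1e6 tags of all classes, log axis), by cell type; each point is 1 library, with 3 per type. mmu_piR_017405 and mmu_piR_000536 were higher in smooth muscle types, mmu_piR_015997 and mmu_piR_010700 in PTM, Sertoli and germ cells, and mmu_piR_033077 in Leydig cells; novel_pir8777 was highest in PTM and the second Sertoli library.

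Other abundant members varied within types. mmu_piR_000935 was at 7684, 3620.0 and 5.14 for Sertoli, 701, 1750.0 and 2526 for PTM, 2481, 1368 and 408 for Leydig, 55.5 to 928 in smooth muscle libraries and 232, 12.0 and 245 in germ cells. The third Sertoli library was far below the other 2, and the log2 fold change of testicular somatic against smooth muscle types was 2.93 ± 0.73 (adjusted p = 0.0051). This call was lost without a count filter, and any difference between the somatic types was not called (adjusted p = 0.051). Over all members, Sertoli libraries had a mean Spearman correlation with each other of 0.569, against 0.752 to 0.869 within the other 5 somatic types. mmu_piR_025576 ranged from 22.6 to 747 within PTM, from 66.3 to 988 within VSMC and from 13.96 to 518 within ISMC, and no difference between types was called (adjusted p = 0.80). mmu_piR_000691 (309 to 1312) and mmu_piR_000585 (185 to 772) spanned less over the 18 libraries, with adjusted p = 0.10 and 0.24 for any difference. For mmu_piR_000585, PTM was higher than smooth muscle types by 0.88 ± 0.34 (adjusted p = 0.049), lost without any 1 of 12 libraries (adjusted p up to 0.148). For 33 members a single library held over 50% of the summed rate of the 18.

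All rows of the table with at least 10 counts in at least 3 somatic libraries were tested together, 3649 rows of every class with 998 members among them. A call is a Benjamini-Hochberg adjusted p under 0.05 in edgeR's quasi-likelihood test. In the test of any difference between the 6 somatic types 240 members were called, 24% of those tested, against 28.2% of all rows. PTM cells against smooth muscle types gave 272 members higher in PTM cells (27.3%, against 34.6% of all rows) and 73 lower (7.31%, against 10.4%). The 3 testicular somatic types against smooth muscle types gave 274 higher (27.5%, against 28.6%) and 121 lower (12.1%, against 14.4%). These shares of members were at or below those of all rows. The median log2 fold change of members was 0.66 for PTM cells against smooth muscle types and 0.46 for the testicular types, and over all rows it was 1.04 and 0.76. The calls rest in part on listing. Of the higher calls, 68 of the 272 and 68 of the 274 were listed at 0 in all 9 smooth muscle libraries. Of the lower calls, 13 of the 73 were listed at 0 in all PTM libraries and 7 of the 121 in all testicular somatic libraries. Such members met the rule through libraries other than those at 0, so their calls are a description.

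The 1349 tested piRNA rows that were not members moved more to one side, and 16.8% of them were called in the test of any difference. In PTM cells against smooth muscle types 55.7% of them were called higher and 0.445% lower, and in the testicular types 35.3% higher and 2.52% lower. The difference between members and other piRNA rows was not tested, because the rule chose the members.

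**Figure D3:**
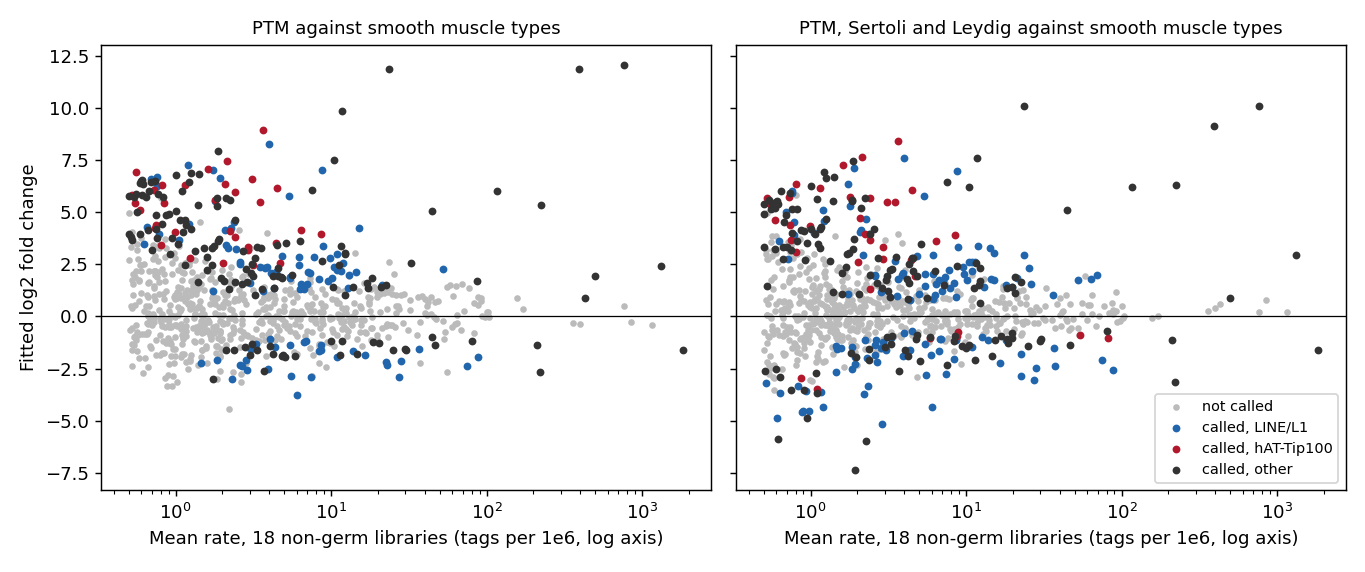
Fitted log2 fold change of members against mean rate in the 18 somatic libraries (tags per 1e6, log axis), for PTM cells (left) and for the 3 testicular somatic types (right) against the 3 smooth muscle types; coloured points passed an adjusted p under 0.05. Members listed at 0 in every library of a compared side (92 left, 80 right) are left out, since their fitted values have no scale. Called members of the hAT-Tip100 family lay above 0 at left, and called LINE/L1 members lay on both sides.

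PTM against the mean of Sertoli and Leydig gave 6 members higher (0.601%, against 0.438% of all rows) and 0 lower (against 0.411%) in edgeR. At an unadjusted p under 0.05 there were 93 members in either direction, a count with no share of all rows to set beside it. DESeq2 called 24 higher (2.40%, against 2.66% of all rows) and 15 lower (1.5%, against 2%). novel_pir25646 and novel_pir25644, in an ERVL-MaLR interval of 7 members in an intron of Susd5 (chr9:114075469-114075807), were among the 6. novel_pir25646 was at 35.5, 34.6 and 53.8 for PTM, 8.83, 3.28 and 3.88 for Sertoli, 13.6, 10.3 and 11.2 for Leydig, 1.93 to 11.7 in smooth muscle libraries and 0, 0 and 2.07 in germ cells. Every PTM library lay above every other. The log2 fold change against Sertoli and Leydig was 2.05 ± 0.34 (adjusted p = 0.012), lost without the second PTM library (adjusted p = 0.0636). novel_pir25644 (r = 0.97 with it over the 18 libraries) gave 2.13 ± 0.39 (adjusted p = 0.019), lost without any 1 of the PTM libraries or the second Leydig library. Both calls were also lost without a count filter, among piRNA rows alone and with all 21 libraries in the fit.

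Enrichment in a single type asked for a call and a log2 fold change of at least 1 against each of the 5 other somatic types. It was met by 1 member in PTM and 2 in Leydig, against 0.0548% and 0.329% of all rows, and by 0 in Sertoli (against 0.0274%), TSMC (against 0.0274%), VSMC and ISMC (against 0% each) in edgeR. novel_pir15577, in an L1 interval in an intron of Trpm3 (chr19:22852132-22852295), was at 8.09, 6.96 and 12.5 for PTM, listed at 0 in the other 15 somatic libraries, where up to 9 tags may be hidden, and at 1.12, 0.715 and 1.92 in germ cells. It passed the rate limit and the count minimum through PTM alone, so its call against types at 0 is a description and supports nothing. It met the enrichment rule neither in DESeq2, nor with a replicate block, nor among piRNA rows alone, and with those its PTM against Sertoli and Leydig call was lost as well (adjusted p of 0.0960, 0.0569 and 0.126). novel_pir15498, in another L1 interval of the same gene (chr19:22851630-22851970), was at 37.5, 43.4 and 48.9 for Leydig, 4.04 to 18.8 over PTM and Sertoli and 0.907 to 2.73 in smooth muscle libraries. The other Leydig member was mmu_piR_033077.

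The calls of PTM against smooth muscle types are given by family beside the 34.6% of all rows that were higher and the 10.4% that were lower. Of 97 hAT-Tip100 members 58 were higher in PTM (59.8%) and 0 lower in edgeR. Higher shares near that of all rows were found for ERVL-MaLR members (59 of 172, 34.3%), ERVL members (22 of 58, 37.9%) and mmu_piR members (24 of 67, 35.8%), and lower calls numbered 2 (1.16%), 2 (3.45%) and 5 (7.46%). Higher shares were below that of all rows for LINE/L1 members (65 of 387, 16.8%), ERVK members (23 of 126, 18.3%) and ERV1 members (20 of 80, 25%), of which 36 (9.30%), 19 (15.1%) and 7 (8.75%) were lower. Entries of an interval share its address and are not independent, so counts by family describe fewer loci than members.

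Summing the members of each interval gave 255 units (188 intervals and 67 mmu_piR entries), 253 of them tested among 2904 rows, an alternative added after the data were seen. PTM cells against smooth muscle types then gave 78 units higher (30.8%, against 38.5% of those 2904 rows) and 24 lower (9.49%, against 12%). Testicular somatic against smooth muscle types gave 76 units higher (30%, against 28.5%) and 30 lower (11.9%, against 16.4%). The 10 intervals with the largest sums held 453 members and 48.3% of the summed rate.

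The hAT-Tip100 intervals on chr17 and chr11, printed above, differed. Summed over its 66 members, the chr17 interval was at 968, 1071 and 646 in TSMC, 918, 893 and 1113 in VSMC, 1040.0, 855 and 1148 in ISMC, 813, 591 and 487 for Leydig, 1063, 613 and 902 for Sertoli, 1185, 1341 and 957 for PTM, and 114, 213 and 124.8 in germ cells. The somatic types overlapped, and the sum gave a log2 fold change of -0.21 ± 0.17 (adjusted p = 0.40) for testicular against smooth muscle types. By member, 32 of the 66 were called higher in the testicular types (48.5%, against 28.6% of all rows) and 7 lower (10.6%, against 14.4%). novel_pir13859 was at 83.3 to 323 over the 18 libraries (log2 fold change 0.03 ± 0.21, adjusted p = 0.9998), while novel_pir13869 was lower in the testicular types (log2 fold change -1.03 ± 0.23, adjusted p = 0.0024), both named after their values were seen.

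The chr11 interval, summed over 28 members, was at 12.5, 10.3 and 30.6 in TSMC, 5.14, 2.82 and 4.99 in VSMC, 7.41, 10.4 and 15.7 in ISMC, 57.6, 36.2 and 75.5 for Leydig, 128, 20.9 and 52.3 for Sertoli, 244, 78.5 and 153 for PTM, and 0.617, 0.556 and 3.68 in germ cells. Except for the second Sertoli library, which lay below the third TSMC library, testicular libraries stood above smooth muscle libraries. The log2 fold change of testicular somatic types was 3.07 ± 0.40 (adjusted p = 1.9e-05), with 21 of 28 members called higher (75%, against 28.6% of all rows) and 0 lower. The low smooth muscle sums and these calls rest in part on listing, since each entry at 0 may hide up to 9 tags. novel_pir6345 of this interval was listed at 0 in all 9 smooth muscle libraries, so it met the rule through testicular somatic libraries alone. Where members were chosen by their testicular rates, a higher testicular sum follows in part from the rule. These calls and the fold change of the sum are therefore a description. No interval sum was refitted with zeros read as 9. The mature miR-5099 row, whose hairpin shares its end with this copy, was at 223 to 899.5 in the testicular somatic libraries, 175 to 620.1 in smooth muscle libraries and 15.5, 15.1 and 24.9 in germ cells. Like the chr17 sum, it overlapped between the sides.

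The L1 interval of 96 members in an intron of Slc22a22 (chr15:57432781-57433818) went the other way. Its sum was 943, 719.8 and 916 in TSMC, 449, 448 and 859 in VSMC, 718, 1180.0 and 1113 in ISMC, 308, 211 and 245 for Leydig, 452, 217 and 194 for Sertoli, 345, 266 and 488 for PTM, and 101, 157 and 85.2 in germ cells. Smooth muscle libraries lay above the testicular ones, apart from the first and second VSMC libraries, which fell below the third PTM and the first Sertoli libraries. The log2 fold change of testicular against smooth muscle types was -1.50 ± 0.23 (adjusted p = 8.7e-05), with 41 members called lower (42.7%, against 14.4% of all rows) and 1 higher (1.04%, against 28.6%). Of the lower ones, novel_pir10898 was at 1.46 to 11.1 in the testicular and 2.87 to 102 in the smooth muscle libraries, a log2 fold change of -3.03 ± 0.61 (adjusted p = 0.0012), and novel_pir10911 gave -2.84 ± 0.49 (adjusted p = 0.00034). novel_pir26331 (log2 fold change -4.33 ± 0.86, adjusted p = 0.0011) was in the L1 interval chrX:21679356-21680794, whose sum over 63 members was not called (log2 fold change 0.25 ± 0.35, adjusted p = 0.70). The means of novel_pir26331 were 0.887 for PTM, 0.409 for Sertoli and 0.393 for Leydig, below its germ cell mean of 1.26. It met the rule through the smooth muscle libraries, so its call is a description. In the same interval novel_pir26348 was at 0.766, 1.21 and 0.821 for PTM, listed at 0 in all 3 Sertoli libraries, at 0.884, 0.445 and 0 for Leydig and at 1.97 to 9.87 in smooth muscle libraries.

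The largest sums spread differently within types. The L1 interval chr2:90394491-90395211, intergenic with 132 members, was at 2323, 829 and 2008 for PTM and 1349, 310.2 and 3782 for Sertoli, and testicular against smooth muscle types gave 0.58 ± 0.41 (adjusted p = 0.29). The ERV1 interval chr11:57559807-57559926, with 6 members, ran from 859 to 2190.0 over the 18 somatic libraries and from 60.7 to 157 in germ cells (log2 fold change -0.08 ± 0.15, adjusted p = 0.85). Its main entry, novel_pir6105, was at 859, 911 and 979.9 for PTM and 1331, 2002 and 1364 for Leydig, with adjusted p = 0.042 for any difference between types and no contrast called.

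The ERVK interval chr14:31515238-31515829, intergenic with 5 members, was led by novel_pir8777, at 337, 245 and 449 in TSMC, 189, 206 and 207 in VSMC, 361, 233 and 347 in ISMC, 212, 67.8 and 137 for Leydig, 448, 1521 and 404 for Sertoli, 817, 1833 and 953 for PTM, and 344, 549.7 and 319.8 in germ cells. PTM libraries lay above all libraries of other types except the second Sertoli library. The log2 fold change of PTM against smooth muscle types was 1.93 ± 0.39 (adjusted p = 0.0015). Since novel_pir8777 had lower means in Leydig and smooth muscle types than in germ cells, it met the rule through PTM and Sertoli libraries. This call is therefore a description. The row most like it was novel_pir9469 (r = 0.92), a member in the G930009F23Rik exon shown above, at 6.08, 12.0 and 14.3 for PTM, 3.34 to 8.26 for Sertoli, 1.17 to 1.90 for Leydig and 0.941 to 3.96 in smooth muscle libraries. Summed over its 2 members, that exon interval was higher in PTM than in smooth muscle types by 2.49 ± 0.34 (adjusted p = 3.4e-05) and than in Sertoli and Leydig by 1.82 ± 0.38 (adjusted p = 0.022). The Gm24049 interval, which shares its run of 19 letters, was higher in testicular than in smooth muscle types by 1.67 ± 0.33 (adjusted p = 0.00076).

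An ERV1 interval in an intron of Tdrd9, which encodes a helicase of the piRNA pathway in mouse germ cells, held novel_pir6634 (chr12:112020537-112020889). It was at 2996, 473 and 982 in TSMC, 165, 92.4 and 486 in VSMC, 129, 531 and 412 in ISMC, 155, 1301 and 284 for Leydig, 261, 437 and 4999 for Sertoli, 1090.0, 236 and 139.8 for PTM, and 49.5, 641 and 31.9 in germ cells. The first PTM, the third Sertoli, the second Leydig, the first TSMC and the second germ libraries were each far above their partners, and no difference between somatic types was called (adjusted p = 0.17). The ERV1 interval chr9:78248505-78248694 was at 329, 154 and 155 for PTM, 40.6, 281 and 262 for Sertoli and 64.3, 2421 and 379 for Leydig, with 0 to 14.5 in smooth muscle libraries and 0.463 to 2.88 in germ cells. All testicular somatic libraries lay above these, and the second Leydig library was the highest. The log2 fold change of testicular somatic against smooth muscle types was 6.11 ± 0.88 (adjusted p = 5.2e-05). Its member novel_pir24774 was listed at 0 in every smooth muscle library and so met the rule through testicular somatic libraries. This fold change rests in part on the rule and on listing, and is a description.

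**Figure D4:**
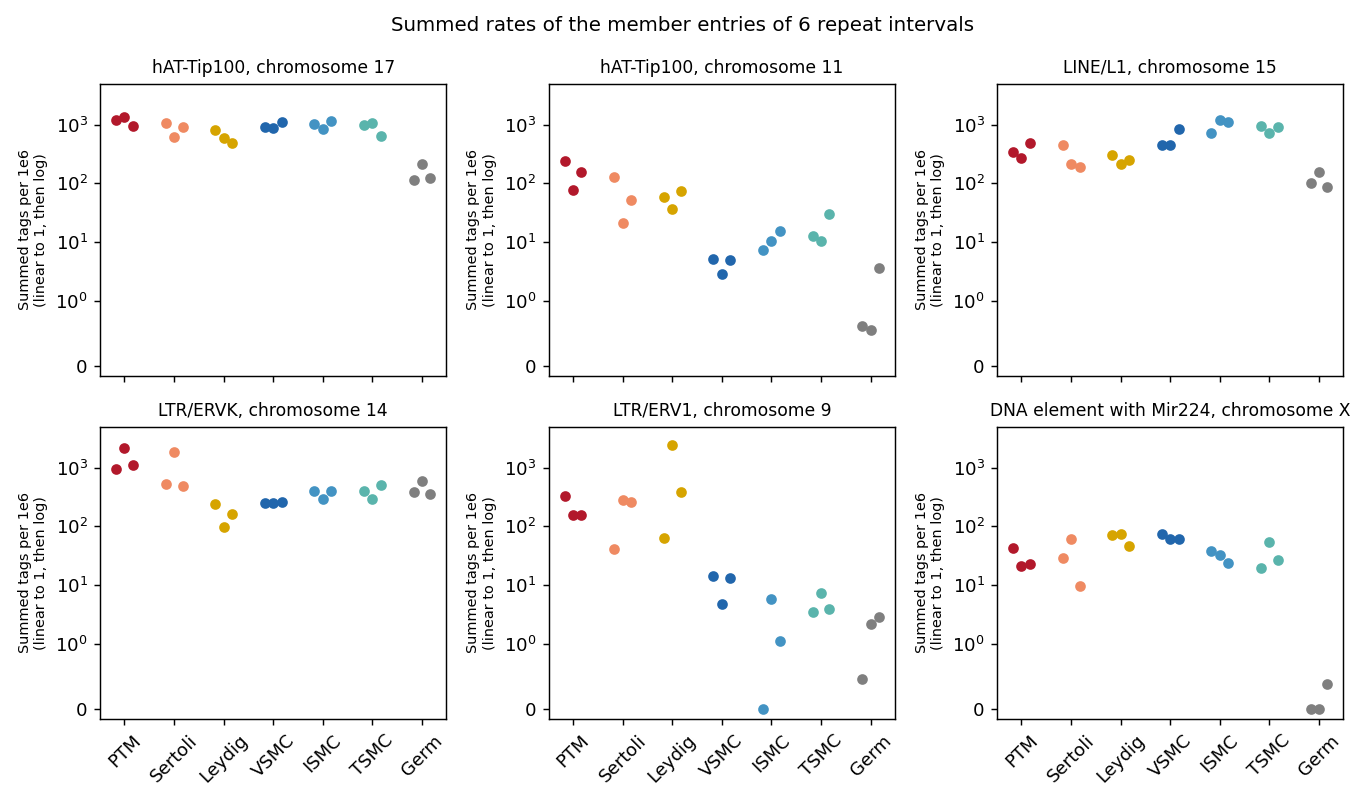
Summed rate of the member entries of 6 repeat intervals in every library (tags per 1e6 tags of all classes, linear to 1 and logarithmic above), by cell type; each point is 1 library, with 3 per type. The chr17 hAT-Tip100 and Mir224 intervals overlapped across the somatic types, the chr11 hAT-Tip100 and chr9 ERV1 intervals were higher in PTM, Sertoli and Leydig cells, and the chr15 L1 interval was higher in smooth muscle types.

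Members of the Mir224 and Mir7688 intervals, of 11 with a miRNA gene, were set beside the miRNA rows, a comparison chosen after the values were seen. Where their tags lie within the interval is not known here. Not every such interval went with its miRNA. The Mir466d member had a mean rate of 9.95 in somatic and 0.419 in germ libraries. miR-466d-3p instead had its highest mean in germ cells (5.85, against 1.27 to 4.36 in the somatic types). In the Mir224 interval, novel_pir26387 was at 14.1, 42.5 and 20.1 in TSMC, 53.2, 44.6 and 43.1 in VSMC, 31.9, 25.9 and 17.4 in ISMC, 45.9, 54.4 and 34.3 for Leydig, 20.4, 41.1 and 7.17 for Sertoli, 33.3, 16.0 and 18.1 for PTM, and 0, 0 and 0.383 in germ cells. miR-224-5p was at 6.995, 14.2 and 11.3 in TSMC, 29.9, 27.1 and 30.4 in VSMC, 12.3, 11.9 and 9.92 in ISMC, 35.9, 25.9 and 15.1 for Leydig, 28.4, 61.0 and 8.26 for Sertoli, 12.4, 9.59 and 6.47 for PTM, and 0.308, 0.516 and 0.498 in germ cells. miR-224-5p was lowest in germ cells, and so was novel_pir26387, for which the rule asked for a germ mean below the somatic mean. Over the 18 somatic libraries their r was 0.73. The summed interval was not called between testicular and smooth muscle types (log2 fold change -0.13 ± 0.26, adjusted p = 0.88).

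In the Mir7688 interval (chr10:93433090-93433291) novel_pir3595 was at 5.84, 0 and 0.773 for PTM, 30.6, 0 and 11.4 for Sertoli, 0.575, 16.1 and 0 for Leydig and listed at 0 in all smooth muscle and germ libraries. miR-7688-5p was at 15.9, 0.580 and 5.31 for PTM, 70.4, 1.19 and 27.8 for Sertoli, 1.15, 36.4 and 1.26 for Leydig and 0.221 to 2.001 in smooth muscle libraries. The entry and the miRNA were high in the same libraries, the first Sertoli, the third Sertoli and the second Leydig (r = 0.97 over 18).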

How the data were processed

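Small RNA libraries of 7 mouse cell types, 3 each, were analysed from 1 table. The deposited counts are whole tags per entry, and the authors' TPM columns, deposited beside them, served only for 1 alternative choice of members. Bowtie2 and mm10 are named per the submitters' processing notes; for tag lengths, the counting of tags that fit several addresses and the piRNA prediction, the method is not given in the sources used here. Columns of samples outside the series numbered 0.

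The members and lists were chosen with earlier results of these data known. Counts of 18.1 to 26.1 M tags per library were fitted with edgeR 4.0.16 (limma 3.58.1, R 4.3.3; TMM, robust quasi-likelihood, 12 residual degrees of freedom) over the 18 somatic libraries, with 1 coefficient per type, for the 3649 rows that reached 10 counts in 3 or more libraries. P-values were adjusted by Benjamini-Hochberg over all 3649 rows. The steps were tested on simulated data. DESeq2 1.42.0 was an alternative, as were other scalings, filters, piRNA rows alone, all 21 libraries, a replicate block and leaving out each library. After the data were seen, sums by interval and reading zeros of novel_pir entries as 9 were added. Tables and figures used Python 3.11.15, pandas 2.3.3 and matplotlib 3.10.9.

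Named members were the 10 most abundant, the 5 with the lowest adjusted p for any difference, the 5 largest changes in each direction of each contrast (mean rate at least 5), the enriched members and those nearest the limits. Intervals, miRNA rows beside members and the members novel_pir13859, novel_pir13869, novel_pir26387 and novel_pir9469 were picked after values were seen. Errors are SD for rates and SE for fold changes. No libraries of a type agreed within counting noise, so none was merged.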

Additional observations from a re-analysis of the deposited data

How the results depend on the processing

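Of the values for 50 fold changes of named members, 1268 kept their call, 76 lost it and 0 changed direction. RLE scaling gave 10 members higher in PTM than in Sertoli and Leydig and enriched 3 in PTM and 1 in Leydig, and library totals gave 14, 2 and 0. Without a count filter 2 members were lower in PTM than in Sertoli and Leydig, and Sertoli, Leydig and TSMC each had 1 enriched member. A minimum of 50 counts gave 13 higher and 1 lower in that contrast, 180 higher in PTM than in smooth muscle, and 3 enriched in PTM. With piRNA rows only, 150 members differed between types, 0 were higher in PTM than in Sertoli and Leydig, 112 were lower in PTM than in smooth muscle, and 0 were enriched in PTM or Leydig. DESeq2 called 383 between types and 24 and 15 in PTM against Sertoli and Leydig, with 3 enriched in PTM (novel_pir25644, novel_pir25645 and novel_pir25646, not novel_pir15577) and 1 in TSMC. All 21 libraries in the fit left 0 enriched in Leydig. Reading zeros of novel_pir entries as 9, added after the data were seen, gave 1662 members, 453 called between types, 24 and 10 in PTM against Sertoli and Leydig, 152 lower in PTM and 189 lower in testicular types than in smooth muscle, and 3, 1 and 5 enriched in PTM, Sertoli and Leydig. Without the most abundant member the share was 0.938% in VSMC, 1.31% in ISMC and 1.44% in TSMC. Shares of all rows under these settings are given only for DESeq2 in PTM against Sertoli and Leydig, above. The rows tested also changed, from 1577 with a minimum of 50 counts to 18331 without a count filter. The counts here and below thus do not tell a change of the members from a change of all rows. The causes were not tested.

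Leaving out 1 library at a time gave 0 to 15 members higher and 0 to 4 lower in PTM than in Sertoli and Leydig (0 higher without the second PTM library, 15 without the second Sertoli library), 44 to 83 lower in PTM than in smooth muscle (44 without the first PTM library and 46 without the second), 0 to 3 enriched in PTM and 0 to 2 in Leydig. The median log2 fold change of all rows for PTM against smooth muscle was 1.04 with TMM, 1.16 with RLE and 1.23 with library totals. With a replicate block, 226 members were called between types and 5 higher in PTM than in Sertoli and Leydig. Same-numbered libraries of different types deviated together with a mean r of 0.0283, over 0.1 in 17 of 45 pairs. Differently numbered ones had a mean r of -0.0138, over 0.1 in 25 of 90 pairs. These values cannot show whether libraries with the same number were prepared together.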
